A study of Mus musculus with 6 samples.

Results

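The alcohol and aldehyde dehydrogenases described here are 10 genes chosen by name: the alcohol dehydrogenases Adh1, Adh4 and Adh5, the aldehyde dehydrogenases Aldh1a1, Aldh1b1, Aldh2, Aldh3a2, Aldh8a1 and Aldh9a1, and the aldo-keto reductase Akr1c6. All 10 are among the 49315 genes of the count table, and all 10 had enough counts to be tested, of 24382 genes tested. RNA was sequenced in 6 libraries of hepatocytes from male C57BL/6J mice, 3 labelled control (genotype Wild-type, treatment Empty vector) and 3 labelled miR-206 (genotype miR-206 overexpression, treatment miR-206). The design text gives another account of the controls. In it, 3 mice aged 8 weeks received by hydrodynamic injection 20 µg of a pT3 plasmid carrying miR-206 and GFP behind the TTR promoter, with 0.8 µg of a Sleeping Beauty transposase plasmid. After 4 weeks their hepatocytes were sorted into GFP-negative cells, taken as control, and GFP-positive cells, taken as miR-206. Under that account both groups share the injection and the mice, and plasmid uptake, GFP and the sort cannot be told apart from miR-206. The TTR promoter restricts expression mainly to hepatocytes. The Mir206 gene had no count in any library. A count of 0 in the shallowest allows a level of up to 0.722 counts per 1e6, and mRNA libraries give no measure of a mature microRNA.

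Alcohol dehydrogenases oxidise alcohols to aldehydes with NAD, and aldehyde dehydrogenases oxidise the aldehydes onward to acids. The liver is the main site of both steps, for ethanol from the diet and gut as well as for retinol, formaldehyde and aldehydes made from lipids and amino acids. In the ethanol route, class I alcohol dehydrogenase makes acetaldehyde in the cytosol and mitochondrial Aldh2 turns it into acetate.

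A microRNA pairs with transcripts through its seed, bases 2 to 8, so the seed and its matches are shown to place the 10 genes among possible direct targets. The mature sequence is from RefSeq (GRCm38.p6, chr1:20679055-20679076, plus strand), with the seed in capitals.
mmu-miR-206-3p: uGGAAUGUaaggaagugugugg
The DNA match to this seed, ACATTCC, was absent from the longest annotated 3' UTR of each of the 10 genes, while 10.1% of 20890 genes with an annotated 3' UTR held it. The shorter match to bases 2 to 7, CATTCC, was found at 2 places in Aldh2 and 1 in Aldh3a2, in 29.6% of all those genes, and in none of the other 8. These matches, read from the GENCODE transcripts (GRCm38, transcript strand), are in capitals. No inference about miR-206 binding is drawn from them.
Aldh2, chr5:121567644-121567667, minus strand: ttatctctgttgCATTCCgtaact
Aldh2, chr5:121566793-121566816, minus strand: accagaaggttcCATTCCtagagg
Aldh3a2, chr11:61245420-61245443, minus strand: aaagcatggagcCATTCCtgtagt

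The control libraries held 8966590 to 15244017 counts and the miR-206 libraries 4157947 to 5724329. Mitochondrially encoded genes took 9.16% to 36.0% of counts in controls and 11.2% to 63.8% in miR-206 libraries. Receptor genes of the olfactory and vomeronasal families, whose proteins serve the sense of smell, gave 1.26 to 3.05 counts per exonic kb in controls and 3.70 to 5.45 in miR-206 libraries, a measure of background. Control 1 stood apart, with correlations of log2 CPM (counts per 1e6 library counts after TMM scaling) to the other controls of 0.854 and 0.856 against 0.965 between those. With counts as deposited, 29.6% of all tested genes were called lower in miR-206 libraries and 25.8% higher (edgeR, adjusted p under 0.05). Among markers of other cells, 11 of 11 Kupffer genes were called lower, with a summed level of 363 to 1588 CPM in controls and 46.0 to 57.3 in miR-206 libraries. So were 10 of 10 sinusoidal endothelial genes (494 to 558 and 117 to 130 CPM), 5 of 10 stellate genes (293 to 852 and 131 to 152 CPM) and 5 of 6 tested cholangiocyte genes (863 to 3075 and 36.4 to 97.9 CPM). Of 9 lymphocyte genes 3 were called lower and 3 higher (75.4 to 85.1 and 72.2 to 90.5 CPM), and of 6 tested red cell genes 1 was called lower. None of these markers was at 0 in all 3 miR-206 libraries, and their part in the results below was not tested. These calls too depend on the scale. After background correction 8 of 11 Kupffer genes were called lower and 0 higher, and of 10 endothelial genes 3 were called lower and 3 higher. In that fit 20.3% of all genes were called lower and 18.5% higher. It kept genes at 10 or more times background on average over the 6 libraries. Kupffer and endothelial genes lay at 1.33 to 5.49 times in miR-206 libraries and met that minimum through the controls. Their corrected calls are thus descriptions only. With hepatocyte scaling the Kupffer calls were 6 lower and 1 higher, and the endothelial calls 1 lower and 3 higher. On that scale 1.54% of all genes were called lower and 66.0% higher. Hepatocyte identity genes, the defining markers of the labelled cells, were present in all libraries, with 34286 to 729241 counts of albumin (Alb), and 21 of 26 were called lower with counts as deposited. After background correction 7 of 25 were called lower and 6 higher, beside 20.3% and 18.5% of all genes in that fit. Foxa2, Cebpa and Hnf4a met its minimum through the controls, at 0.206, 0.858 and 4.37 times background in miR-206 libraries.

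Transcripts of all 10 genes were lower in the miR-206 libraries with counts as deposited. On that scale 10 of 10 fell in the edgeR quasi-likelihood test (adjusted p under 0.05), where 29.6% of all tested genes were called lower and 25.8% higher. DESeq2 called the same 10 lower. In each of the 10 every miR-206 library lay below every control, an order found for 30.3% of tested genes. The median log2 fold change over the 10 was -3.35, against 0.45 over all tested genes, and 5.82% of tested genes lay below that median. Together the 10 genes took 0.214%, 0.394% and 0.393% of the counts of controls 1 to 3, and 0.0610%, 0.0561% and 0.0577% in miR-206 libraries 1 to 3. As shares of nuclear counts these were 0.334%, 0.434% and 0.438%, and 0.0687%, 0.155% and 0.112%. The groups did not overlap on either base. Control 1 was the lowest control for each gene, and its mitochondrial share was 36.0% against 9.16% and 10.4%. Without it all 10 still fell. In bulk RNA, fewer cells carrying a transcript and less of it per cell cannot be told apart.

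The size of the fall depended on the scale, and for 4 genes so did its direction. When libraries were scaled on 26 hepatocyte identity genes, the median of the 10 was -0.43 and that of all genes 2.89, and Adh1 alone fell (1.54% of all genes were called lower and 66.0% higher). The 26 did not move together, with log2 fold changes of -5.33 to -0.72 in counts as deposited. On their own scale 7 of the 26 were called lower and 9 higher, so it is not a neutral reference. On that scale Adh4, Aldh3a2, Aldh8a1 and Akr1c6 turned to values above 0, none past the test. After the receptor background was subtracted, Adh1, Aldh1a1 and Aldh2 were called lower and Adh4 higher, where 20.3% of 6458 genes in that fit were called lower and 18.5% higher (median of all -0.23). The fit kept genes at 10 or more times background on average over the 6 libraries. Adh5, Aldh1b1, Aldh3a2 and Aldh9a1 were under 10 times background in miR-206 libraries and met that minimum through the controls, so their corrected values are given as descriptions only. Adh5 passed the threshold as lower in that fit, but for this reason its pass is not read as a result. With 1 library left out, the corrected values of the genes called lower ran from -1.49 to -1.13 for Adh1, from -1.42 to -0.97 for Aldh1a1 and from -1.20 to -0.79 for Aldh2. Those of Adh5, as a description, ran from -1.19 to -0.75. All calls lower were lost without control 2, control 3 or miR-206 library 3, and without miR-206 library 1 only Adh1 was called lower. With both steps together none of the 10 passed the test, where 9.35% of genes were called lower and 17.2% higher. Without adjustment, edgeR's p on that scale was under 0.05 for 2 genes, Adh1 (lower) and Adh4 (higher). No tool other than edgeR was run on that scale.

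**Figure D1:**
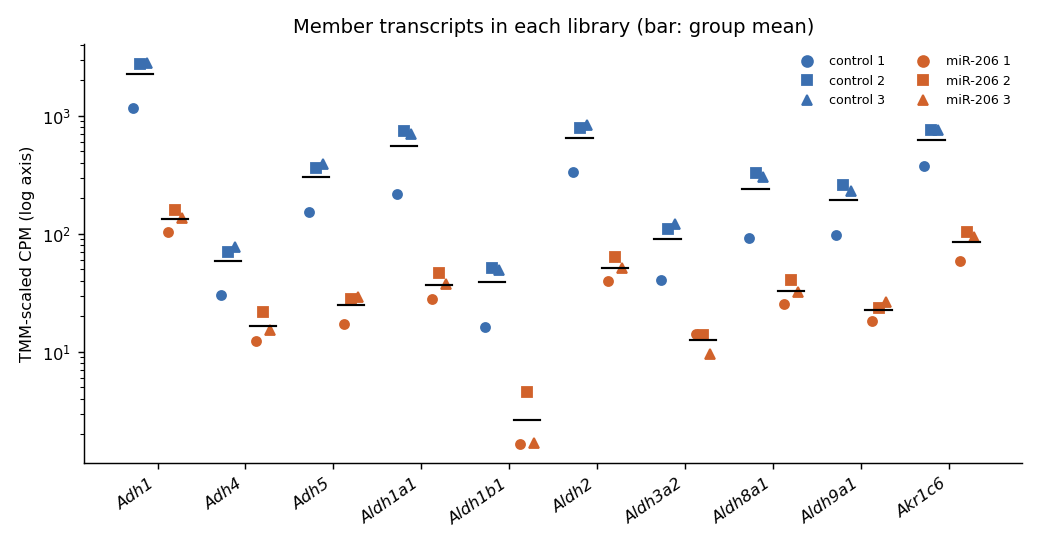
TMM-scaled CPM of the 10 genes (log axis) in each of the 6 libraries, with controls in blue, miR-206 in orange and black bars for group means. For every gene the 3 miR-206 libraries lie below the 3 controls, and control 1 is the lowest control throughout, as for Adh1 at 1173 against 2763 and 2803 CPM.

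Adh1 encodes the class I enzyme that carries most of the ethanol oxidation of the liver (ENSMUSG00000074207, protein-coding, chromosome 3, 138260991 to 138290698, plus strand, GRCm38). The controls gave 8878, 26629 and 24747 counts of it, against 827, 873 and 1034 from miR-206 hepatocytes. In scaled units this was 1173, 2763 and 2803 CPM, and 105, 159 and 135 CPM. The lowest control was thus far above the highest miR-206 library. The mean fell from 2246 ± 930 to 133 ± 27.2 CPM (SD, n = 3 each), 16.9-fold lower (-4.08 on the log2 scale, SE 0.61, edgeR adjusted p = 0.000566), the largest value of the 10 with counts as deposited. Adh1 also fell after background correction (-1.31, SE 0.32, edgeR adjusted p = 0.0145) and with hepatocyte scaling (-1.15, SE 0.39, adjusted p = 0.0260). With both it had a value of -0.94 (SE 0.39, adjusted p = 0.0993).

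Adh4 encodes the class II enzyme, which acts on retinol and larger alcohols (ENSMUSG00000037797, chromosome 3, 138415466 to 138430892, plus strand). Its counts were 229, 671 and 677 in controls and 97, 119 and 118 in miR-206 libraries, or 30.3, 69.6 and 76.7 CPM and 12.3, 21.6 and 15.4 CPM. The gap between the groups was the narrowest of the 3 alcohol dehydrogenases. The mean fell from 58.9 ± 25.02 to 16.5 ± 4.77 CPM with counts as deposited (-1.84, SE 0.43, edgeR adjusted p = 0.00567), the smallest of the 10 on that scale. The sign turned on the other scales. Adh4 rose after background correction (0.87, SE 0.30, edgeR adjusted p = 0.0483) and had values of 1.11 (SE 0.48, adjusted p = 0.0619) with hepatocyte scaling and 1.26 (SE 0.44, adjusted p = 0.0609) with both. Its call after correction was lost when any library other than miR-206 replicate 1 was left out (adjusted p from 0.0734 to 0.126), with values of 0.57 to 0.94. Its miR-206 counts lay at 16.5 times the receptor background, against 1.68 to 86.6 times over the 10 genes.

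Adh5, the class III enzyme, oxidises formaldehyde bound to glutathione and is made in nearly all tissues (ENSMUSG00000028138, chromosome 3, 138443093 to 138455499, plus strand). Its levels were 152, 360 and 390 CPM in controls and 17.2, 28.2 and 29.5 CPM in miR-206 libraries. The mean fell from 301 ± 130 to 24.95 ± 6.74 CPM (-3.59, SE 0.54, edgeR adjusted p = 0.000610). Its miR-206 level was 6.70 times background, against 341 times in controls, and its corrected value was -1.02 (SE 0.32).

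Adh1, Adh4 and Adh5 lie in 1 tandem cluster on chromosome 3, in the order Adh7, Adh1, Adh6a, Adh6b, Adh4, Adh5, all on the plus strand. Their ratios within a library do not depend on scaling between libraries. Adh1 had 38.8, 39.7 and 36.6 counts for each Adh4 count in controls and 8.53, 7.34 and 8.76 in miR-206 libraries, so that the groups were far apart and their replicates close. The log2 ratio was lower in all 3 miR-206 libraries (mean difference -2.23, exact two-sided permutation p = 0.1, the smallest that 3 against 3 can give, and 0.1 adjusted over the 3 ratios tested). With background subtracted the ranges were 36.6 to 39.8 and 7.61 to 9.27. The ratio of Adh1 to Adh5 was 7.72, 7.68 and 7.18 in controls and 6.08, 5.63 and 4.60 in miR-206 libraries (-0.48 in log2, exact permutation p = 0.1). The ratio of Adh1 to Akr1c6 went from 3.14, 3.61 and 3.73 to 1.77, 1.53 and 1.44 (-1.14 in log2, exact permutation p = 0.1). With background subtracted the ratio to Adh5 overlapped between groups, at 7.19 to 7.83 and 5.22 to 7.65.

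The promoters of these 3 neighbours are shown because the genes share a locus but not the size of their change. Each runs from 250 bases before to 50 after a RefSeq start (GRCm38.p6, plus strand). Capitals mark TATAAA and CCAAT on either strand, which do not overlap here and which 13.6% and 37.4% of 32544 RefSeq promoters hold.
Adh1, chr3:138277335-138277634: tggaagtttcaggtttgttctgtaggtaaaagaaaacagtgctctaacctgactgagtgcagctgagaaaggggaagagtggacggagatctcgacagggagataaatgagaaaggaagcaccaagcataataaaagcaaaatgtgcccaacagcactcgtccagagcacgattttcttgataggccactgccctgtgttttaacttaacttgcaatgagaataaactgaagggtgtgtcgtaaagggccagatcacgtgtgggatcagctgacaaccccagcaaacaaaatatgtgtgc
Adh4, chr3:138415247-138415546: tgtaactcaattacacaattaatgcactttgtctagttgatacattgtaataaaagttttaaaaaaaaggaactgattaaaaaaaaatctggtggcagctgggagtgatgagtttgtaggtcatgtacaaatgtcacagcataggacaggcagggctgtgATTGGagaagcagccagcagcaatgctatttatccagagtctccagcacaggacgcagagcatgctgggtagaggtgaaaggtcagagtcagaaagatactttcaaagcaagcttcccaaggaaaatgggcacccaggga
Adh5, chr3:138442843-138443142: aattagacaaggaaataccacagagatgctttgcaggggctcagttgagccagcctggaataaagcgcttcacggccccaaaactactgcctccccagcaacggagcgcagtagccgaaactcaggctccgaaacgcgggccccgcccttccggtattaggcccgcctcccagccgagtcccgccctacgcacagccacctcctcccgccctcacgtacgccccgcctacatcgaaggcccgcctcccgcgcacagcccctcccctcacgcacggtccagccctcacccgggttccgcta
Adh4 holds 1 CCAAT match, on the minus strand, and the Adh1 and Adh5 windows shown hold neither motif. The Adh5 window shown is 65.0% G and C with 26 CpG, whereas Adh1 has 45.3% with 6 CpG and Adh4 42.3% with 1, against medians of 53.0% and 7 over all RefSeq promoters. The window of another RefSeq start of Adh5 (chr3:138436950-138437249), not shown, holds 1 TATAAA match and is 47.0% G and C with 3 CpG. These are descriptions of the windows and nothing on control follows from them.

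Aldh2 encodes the mitochondrial enzyme that clears acetaldehyde (ENSMUSG00000029455, chromosome 5, 121566027 to 121593824, minus strand). It stood at 337, 784 and 835 CPM in controls and 40.0, 63.3 and 50.9 CPM in miR-206 libraries. The groups were separated by a wide gap. The mean fell from 652 ± 274 to 51.4 ± 11.7 CPM (-3.67, SE 0.56, edgeR adjusted p = 0.000634). It also fell after correction (-0.98, SE 0.31, adjusted p = 0.0362), and hepatocyte scaling gave -0.73 (SE 0.40, adjusted p = 0.133). The pair of CATTCC matches shown above lies in its 3' UTR.

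Aldh1b1 is a related mitochondrial enzyme that also accepts acetaldehyde (ENSMUSG00000035561, chromosome 4, 45799022 to 45804604, plus strand). Controls gave 124, 499 and 440 counts of it, and miR-206 libraries 13, 25 and 13. A background at the receptor density would give 12.5, 8.50 and 12.4 counts in those 3 miR-206 libraries, so that 2 of them were at the level of background. The fit to counts as deposited gave a fall (-3.94, SE 0.57, edgeR adjusted p = 0.000512). No corrected fold is given for it.

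Aldh1a1 is the cytosolic enzyme that makes retinoic acid from retinal (ENSMUSG00000053279, chromosome 19, 20492715 to 20643465, plus strand). Its levels were 218, 742 and 696 CPM in controls and 28.0, 46.2 and 37.4 CPM in miR-206 libraries. Control 1 was again the lowest control, and no library of either group overlapped the other. The mean fell from 552 ± 290 to 37.2 ± 9.12 CPM (-3.89, SE 0.61, edgeR adjusted p = 0.000738), and after correction the value was -1.18 (SE 0.34, adjusted p = 0.0274). Aldh1a7, a close paralog on the same chromosome (20692953 to 20727562, minus strand), fell by 3.33 in log2 (SE 0.54, edgeR adjusted p = 0.000857), and reads can be shared between the pair.

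Aldh3a2 oxidises fatty aldehydes in the endoplasmic reticulum (ENSMUSG00000010025, chromosome 11, 61223417 to 61267464, minus strand). It stood at 40.6, 109 and 121 CPM in controls and 14.3, 13.8 and 9.69 CPM in miR-206 libraries, with 3.27 times the background in the latter. Mean Aldh3a2 fell from 90.3 ± 43.5 to 12.6 ± 2.53 CPM with counts as deposited (-2.84, SE 0.48, edgeR adjusted p = 0.00107). Its values were -0.54 (SE 0.30) in the corrected fit, as a description only, and 0.095 (SE 0.42, edgeR adjusted p = 0.848) when scaled on hepatocyte genes. Aldh9a1 makes the aldehyde precursor of carnitine into its acid (ENSMUSG00000026687, chromosome 1, 167349991 to 167368532, plus strand). Its levels were 98.2, 257 and 231 CPM in controls and 18.3, 23.5 and 26.3 CPM in miR-206 libraries. Mean Aldh9a1 fell from 195 ± 85.2 to 22.7 ± 4.04 CPM (-3.10, SE 0.50, edgeR adjusted p = 0.000800), with a corrected value, as a description only, of -0.46 (SE 0.26).

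Aldh8a1 acts in tryptophan breakdown and was first described as a retinal dehydrogenase (ENSMUSG00000037542, chromosome 10, 21377291 to 21396585, plus strand). It stood at 93.1, 329 and 302 CPM in controls and 25.4, 40.7 and 32.5 CPM in miR-206 libraries, again without overlap. Mean Aldh8a1 fell from 241 ± 129 to 32.9 ± 7.67 CPM with counts as deposited (-2.88, SE 0.56, edgeR adjusted p = 0.00215), with values of -0.16 (SE 0.32, adjusted p = 0.711) in the corrected fit and 0.16 when scaled on hepatocyte genes. Akr1c6 is a liver aldo-keto reductase that reduces the 17-keto group of steroids (ENSMUSG00000021210, chromosome 13, 4434306 to 4457877, plus strand). Its levels were 374, 765 and 752 CPM in controls and 59.1, 103 and 93.7 CPM in miR-206 libraries. Mean Akr1c6 fell from 630.3 ± 222 to 85.4 ± 23.3 CPM (-2.88, SE 0.53, edgeR adjusted p = 0.00156), with values of -0.15 (SE 0.32, adjusted p = 0.725) in the corrected fit and 0.0052 when scaled on hepatocyte genes.

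The shares of several of the 10 transcripts within a library differed between the groups without overlap. Adh1 made up 46.3%, 44.4% and 44.8% of the counts of the 10 genes in controls and 32.6%, 31.5% and 31.3% in miR-206 libraries. In miR-206 replicate 1 the 95% Wilson interval of the Adh1 share, which covers counting error only, was 30.8% to 34.5%. Adh4 made up 1.19%, 1.12% and 1.23%, and 3.82%, 4.29% and 3.57%. Its share was thus 3.30 times as large in the miR-206 libraries as in controls, the largest ratio of the 10. Akr1c6 went from 14.8%, 12.3% and 12.02% to 18.4%, 20.5% and 21.7%. Aldh8a1 went from 3.68%, 5.27% and 4.83% to 7.93%, 8.08% and 7.51%, and Aldh9a1 from 3.90% ± 0.22 to 5.48% ± 0.74 (SD, n = 3 each). Aldh3a2 took 1.60%, 1.75% and 1.94% in controls and spread widely in miR-206 libraries, at 4.46%, 2.74% and 2.24%. These 5 shares were higher in all miR-206 libraries.

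Shares of Adh1 and Aldh2 were lower in all miR-206 libraries, the latter only slightly, from 13.1% ± 0.42 to 12.3% ± 0.43. Shares of Adh5, Aldh1a1 and Aldh1b1 overlapped. For each of the 7 shares without overlap the exact two-sided permutation p was 0.1, the smallest possible, and 0.143 adjusted over the 10. Shares sum to 100%, so that a fall in the Adh1 share raises the others. With background subtracted, 6 of the 7 kept their order without overlap, and Aldh3a2 overlapped. Adh1 then made up 45.3% ± 1.15 and 33.5% ± 1.18, and Adh4 1.17% ± 0.05 and 3.89% ± 0.39.

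**Figure D2:**
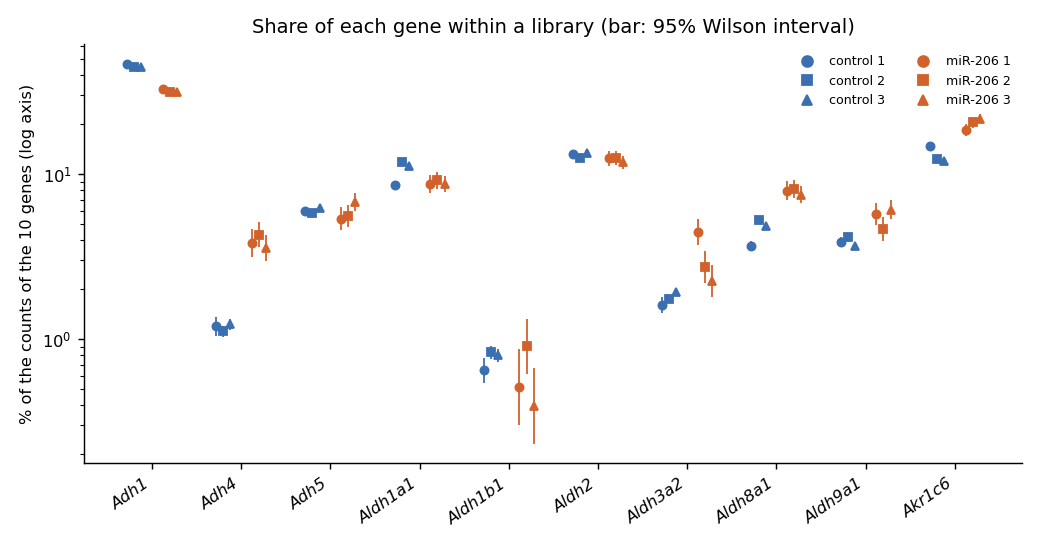
Share of each gene in the summed counts of the 10 genes (percent, log axis) by library, with 95% Wilson intervals. Adh1 lies at 44.4% to 46.3% in controls and 31.3% to 32.6% in miR-206 libraries, while Adh4 lies near 1.2% and at 3.57% to 4.29%.

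Levels were also ordered per exonic kb, where the length covers all annotated exons of a gene and can exceed that of its transcript. No background was subtracted, so the order between genes is approximate. In controls it was Adh1 (1006 ± 416 CPM per kb), Akr1c6 (310.0 ± 109), Aldh2 (127 ± 53.5) and Aldh1a1 (112 ± 58.7). Aldh9a1 (57.7), Adh5 (55.6) and Aldh8a1 (55.0) followed and changed places between libraries. Adh4 (40.6), Aldh1b1 (17.1) and Aldh3a2 (16.1) were lowest, the last 2 also changing places. In the miR-206 libraries Adh1 (59.5 ± 12.2 CPM per kb) and Akr1c6 (42.0 ± 11.5) again led. Adh4 (11.3 ± 3.29) ranked 3 there, above Aldh2 (10.03 ± 2.28) in 3 of 3 libraries. Aldh1a1, Aldh8a1 and Aldh9a1 (7.53, 7.49 and 6.71) changed places, followed by Adh5 (4.61), Aldh3a2 (2.24) and Aldh1b1 (1.15).

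Set against Alb in the same library, the groups were less clearly apart. The 10 genes summed to 8.66, 8.23 and 8.27 counts per 100 Alb counts in controls 1 to 3 and to 1.74, 8.08 and 3.72 in miR-206 libraries 1 to 3. The controls were nearly equal, control 1 included, and miR-206 replicate 2 lay just under them. Alb itself fell with counts as deposited (-2.31, SE 0.73, edgeR adjusted p = 0.0224), with 145929, 34286 and 88921 counts in miR-206 libraries 1 to 3. The 10 genes summed to 2536, 2772 and 3304 counts in these, so the ratio varied there mainly with Alb. Adh1, Adh5, Aldh1a1 and Aldh2 had a lower ratio to Alb in every miR-206 library, an order found for 4.13% of tested genes, with mean log2 differences of -1.67, -1.19, -1.40 and -1.26. The exact two-sided permutation p was 0.1 for each, the smallest possible, and 0.25 adjusted over the 10. The other 6 overlapped, with differences from -1.53 (Aldh1b1) to 0.56 (Adh4). The median over the 10 was -0.93, against 2.93 over all tested genes. Without miR-206 replicate 2, 9 of the 10 were lower in every miR-206 library, the exception being Adh4. The share of all tested genes with that order was not computed without this library, so the count is a description only.

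**Figure D3:**
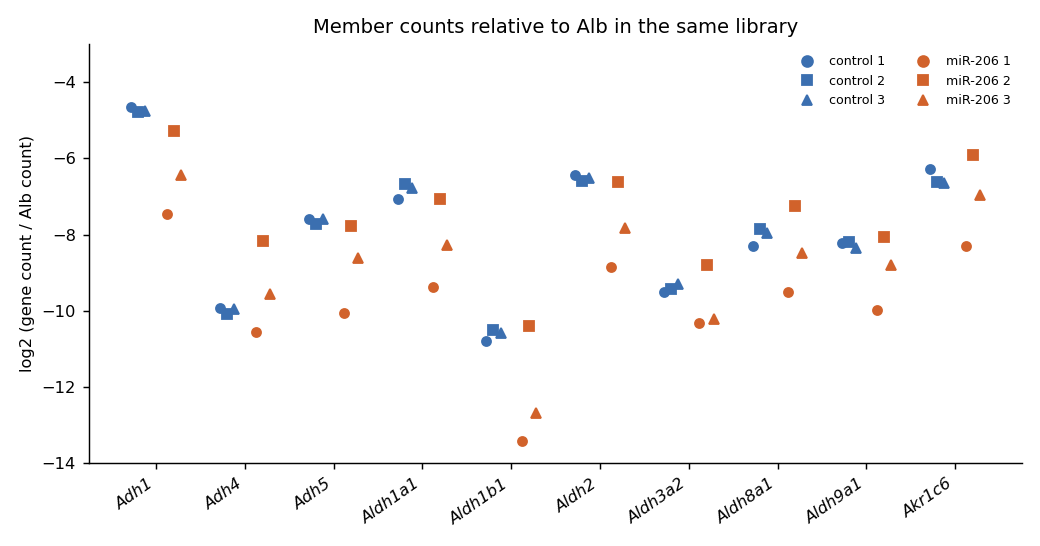
Log2 ratio of each gene's count to the Alb count of the same library, by library. The 3 controls lie close together, miR-206 replicate 2 (orange squares) lies above all of them for 6 genes, and the 4 genes with no overlap are Adh1, Adh5, Aldh1a1 and Aldh2.

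Other enzymes of these routes were grouped by family, and their counts are to be set against the 29.6% of genes called lower and 25.8% called higher. Over the 6 lists, 38 of 63 tested genes fell and 7 rose with counts as deposited. Among other alcohol dehydrogenases 2 of 4 fell (median log2 fold change -0.30): Adhfe1, which oxidises hydroxybutyrate, with -2.31 (SE 0.47, edgeR adjusted p = 0.00286), and Adh7 with -1.07 (SE 0.40, adjusted p = 0.0408). Adhfe1 and Adh7 lay at 4.74 and 2.92 times the background in miR-206 libraries, and the CPM of Adh7 overlapped between groups. Adh6a, within the same cluster, had a value of 0.99 (adjusted p = 0.133) at 3.07 and 6.11 CPM. Among other aldehyde dehydrogenases 8 of 14 fell and 3 rose (median -1.95). The most abundant were Aldh1l1 of folate metabolism (-3.67, SE 0.61), Aldh7a1 of lysine breakdown (-3.13, SE 0.51) and Aldh6a1 of valine breakdown (-3.13, SE 0.53), which all fell. In miR-206 libraries Aldh1l1, Aldh7a1 and Aldh6a1 lay at 24.4, 7.83 and 6.02 times the background. Those that rose, Aldh1l2 (2.13), Aldh3b3 (1.34) and Aldh3a1 (1.78), lay at 4.04, 2.38 and 3.86 times the background in miR-206 libraries.

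Among other aldo-keto reductases 10 of 15 fell and 2 rose (median -2.35). Akr1a1, a general aldehyde reductase, fell with -3.44 (SE 0.52), Akr1c14 with -2.78 (SE 0.48) and Akr7a5 with -3.63 (SE 0.65). They lay at 27.9, 9.95 and 8.24 times the background in miR-206 libraries. Akr1cl (1.52) and Akr1c21 (1.80) rose, at 4.496 and 3.33 times the background. Reads of the Akr1c genes of chromosome 13 can be shared with Akr1c6. Of the ethanol and acetate enzymes Cyp2e1, the microsomal ethanol oxidase, fell from 3500.4 ± 1540 to 811 ± 293 CPM (-2.11, SE 0.61, edgeR adjusted p = 0.0150). Catalase (Cat) fell with -4.05 (SE 0.69) and Acss2, which activates acetate, with -1.82 (SE 0.42), while Acss1 rose with 1.24 at 3.17 times the background and Acss3 had a value of -0.21 (adjusted p = 0.608). Cyp2e1, Cat and Acss2 lay at 544, 69.4 and 3.42 times the background in miR-206 libraries.

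Retinol and retinal enzymes fell in 9 of 18 tested members and rose in 1 (median -1.27). Rdh7 fell with -2.30 (SE 0.62), Aox3 with -3.002 (SE 0.62) and Rdh16f2 with -2.43 (SE 0.51), and Dhrs9 rose with 1.501 at 4.33 times the background. Rdh7, Aox3 and Rdh16f2 lay at 270, 6.40 and 32.4 times the background in miR-206 libraries. Carbonyl and polyol reductases fell in 6 of 7 (median -3.41), among them Sord, the sorbitol dehydrogenase, with -3.70 (SE 0.60), Grhpr with -3.82 (SE 0.51) and Dcxr with -3.41 (SE 0.55). These named reductases lay at 54.2, 12.3 and 14.2 times the background in miR-206 libraries. All the genes named as falling or rising in these lists had an edgeR adjusted p under 0.05. After background correction 9 of the list genes were called lower and 5 higher, of 42 in that fit, where 20.3% of all genes were called lower and 18.5% higher. Some of the 42 met the background minimum through the controls. Aldh7a1, Aldh6a1, Akr7a5 and Aox3, for instance, lay at 7.83, 6.02, 8.24 and 6.40 times background in miR-206 libraries. The corrected counts of calls are therefore descriptions only. With hepatocyte scaling 2 of 63 were called lower and 26 higher, where the shares of all genes were 1.54% and 66.0%.

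Among 1561 other genes of at least 50 CPM, those whose profile over the 6 libraries lay nearest the mean profile of the 10 included Gpd1, Rpl30, Chp1 and Sdhc. Their root-mean-square difference from it was 0.0725 to 0.0854 in log2 CPM. The 10 genes themselves lay at 0.176 (Aldh9a1) to 0.704 (Adh4) from it, so Adh4 was the member least like the rest.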

How the data were processed

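Messenger RNA of sorted hepatocytes was sequenced in 6 libraries, made per the labels from total RNA (RNeasy Micro) with a SMARTER mRNA-Seq kit for very low input. The authors deposited raw counts per gene, whole numbers with Ensembl gene identifiers and symbols. The submitters' processing notes name GRCm 38 and mm 10 as builds. For the aligner, counting program, annotation release and strandedness, nothing was given in the sources used here. Reads of paralogs and of overlapping or antisense genes could not be told apart. Total counts were 4157947 to 15244017 per library.

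Groups follow the labels. Replicate numbers are not stated to mark mice, and p-values measure the spread between these libraries, which may share mice across groups. Counts were tested in edgeR 4.0.16 (R 4.3.3) with filterByExpr (minimum count 10), TMM factors, the robust quasi-likelihood test on group alone and Benjamini-Hochberg adjustment over all 24382 genes tested, with a threshold of 0.05. CPM are TMM-scaled. SE is that of the log2 fold change. Ratios to Alb used a pseudocount of 0.5. Exact permutation tests were two-sided.

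Exonic lengths, loci and 3' UTRs came from GENCODE M21 (GRCm38), to which 49056 of 49315 genes matched by identifier. RefSeq promoters matched 9 of the 10 genes. Background was the counts per exonic kb over 1702 olfactory and vomeronasal receptor genes (5503 kb). For the corrected fit it was multiplied by each gene's exonic length and subtracted, and nuclear protein-coding genes at 10 or more times background, averaged over the 6 libraries, were kept. A gene could meet this through 1 group alone. Alternatives were DESeq2 1.42.0, other scaling factors, no filter, the replicate block, mitochondrial genes left out, and each library left out. The corrected fits with libraries left out, a stricter background minimum, the tests of shares and the tests of ratios of Adh1 to other members were not planned and were added after seeing the data.

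The 10 genes and the lists were chosen with earlier results of these data known. Besides these 10 and Alb, the named genes are the 3 most abundant of each list, any list members called higher where 3 or fewer were, and the 5 genes of at least 50 CPM nearest the mean profile of the 10. Of these 5, 1 is not reported here. Aldh1a7, Acss3 and the markers are named in addition, as a paralog, a remaining list member and checks. The edgeR step was tested on simulated data.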

Additional observations from a re-analysis of the deposited data

How the results depend on the processing

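All 10 genes were called lower with counts as deposited under TMM, RLE or upper-quartile factors, no filter, DESeq2, without mitochondrial genes and without any 1 library. With library size alone 9 were, Adh4 being at -0.78 (edgeR adjusted p = 0.0879). Calls lower numbered 1 with hepatocyte scaling, 4 with background correction, 0 with both, 1 with the stricter minimum and 0 to 5 with correction and 1 library left out. Of the 4 with correction, Adh5 met the background minimum through the controls and is a description only. Calls higher numbered 1 with correction, 1 with the stricter minimum and 0 to 1 with correction and 1 library left out. Same-numbered libraries did not deviate together (r = 0.0082, 0.023 and -0.0064), and with the replicate block 10 genes were called lower and 0 higher.

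Adh4 turned to 1.11 with hepatocyte scaling, 0.87 with correction, 1.26 with both, 1.15 with the stricter minimum, and 0.57 to 1.08 with correction and 1 library left out (0.80, 0.85 and 0.94 without controls 1 to 3, 1.08, 0.57 and 0.91 without miR-206 1 to 3). Aldh3a2 turned to 0.095 with hepatocyte scaling. Aldh8a1 turned to 0.16, 0.26, 0.13 and 0.040, and Akr1c6 to 0.0052, 0.21, 0.13 and 0.086, with hepatocyte scaling, both steps, the stricter minimum, and correction without miR-206 replicate 1. With 1 library left out, the log2 ratio difference to Alb ranged from -0.96 to 0.17 for Aldh8a1, from -1.10 to 0.090 for Akr1c6 (both highest without miR-206 replicate 1) and from -0.068 (without miR-206 replicate 2) to 1.12 for Adh4. The number of genes with a lower ratio to Alb in all miR-206 libraries was 3 to 9 with 1 library left out. The cause was not tested.

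Among list genes, calls lower numbered 2 with hepatocyte scaling, 9 with correction, 2 with both and 3 with the stricter minimum, where all genes were called lower in 1.54%, 20.3%, 9.35% and 662 of 4209. The counts with correction are descriptions only, since some list genes met the background minimum through the controls. Calls higher numbered 11 with upper-quartile factors, 12 with library size alone, 26 with hepatocyte scaling, 4 without a filter, 4 with the stricter minimum and 1 to 13 with 1 library left out (13 without control replicate 1). Among all genes, calls higher ran from 648 to 16092 over the alternatives, the latter with hepatocyte scaling (66.0% of 24382). The list counts move with that base and are descriptions only. Of all calls, 46.6% were higher with TMM, 68.8% with upper-quartile factors, 75.5% with library size alone and 97.7% with hepatocyte scaling, and the median of all genes moved from 0.45 to 1.25, 1.47 and 2.89. Counts near background limit Aldh1b1 and Aldh3a2.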
